A study of Mus musculus with 12 samples.

Results

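Myc and 42 genes of ribosome biogenesis were followed in RNA from mouse spleen cells that had been cultured with αCD3, IFNγ or LPS. The 43 members were chosen by name, as Myc, RNA polymerase I genes and nucleolar ribosome assembly factors, and make up 43 of the 20778 gene symbols measured. All 43 passed the filter on low counts, which left 12122 genes for testing. The study sequenced mRNA from C57BL/6 splenic cells labelled CD8 T cells, which were isolated with magnetic beads. It compared the expression profile after IFNγ with those after αCD3 and LPS. By the labels the culture lasted 6 hours. The paper describes overnight incubation with stimulators before its assay on tumor cells, so the time is uncertain. The 4 groups of 3 libraries each were cells left untreated (Naïve), cells given αCD3, an antibody to the signalling chains of the T cell receptor, cells given IFNγ, a cytokine of activated T cells, at 70 ng/ml, and cells given LPS, a component of the bacterial outer membrane. The labels give 1 µg/ml of αCD3 and of LPS in one field and 1 mg/ml in another, so the unit of these doses is uncertain. The mice were 6 weeks old by the labels, while the methods of the study give an older age, so the age is uncertain, and the labels name no transgene or deletion in any group. No source says whether the 3 libraries of a group came from separate mice or cultures, so p-values measure the spread between these libraries only, which may be technical.

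Myc is a transcription factor that pairs with Max on DNA and is known to drive genes for ribosome production when lymphocytes leave rest and begin to grow. Ribosomes are built in the nucleolus, where RNA polymerase I copies the ribosomal RNA genes, small nucleolar ribonucleoproteins (snoRNPs) modify the precursor RNA, and separate sets of assembly factors fold and trim the small and the large subunit. Resting naive T and B cells keep this machinery low and raise it within hours of an activating signal.

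Total counts ran from 10.2 to 27.6 M per library, and the deepest was αCD3 replicate 1. The defining CD8 T cell markers Cd8a and Cd8b1 were present in all 12 libraries, at 253 to 680 and 444 to 647 CPM (read counts scaled to a common library size by TMM) per kb of coding sequence. RNA of B cells was present beside it, with the B cell receptor gene Cd79a at 355 to 1451 and Ms4a1 at 428 to 689 CPM per kb. Over 12 B cell markers, none of which was at 0, the summed level was 8723 to 9591 CPM in Naïve, 6110 to 6798 in αCD3, 7226 to 7431 in IFNγ and 5805 to 7115 in LPS. Over 8 T cell markers it was 1085 to 1263, 1548 to 1729, 1126 to 1301 and 823 to 979 CPM in the same order. In bulk RNA, fewer cells of a type and less RNA per cell cannot be told apart, nor can the cells in which a member rose, and the part of these marker changes in the results was not tested. Replicate 1 stood apart in each of the 4 groups: chi-square per degree of freedom was 20.6 to 55.6 between it and replicates 2 and 3, and 4.65 to 5.77 between those 2, and erythroid markers summed to 336 to 570 CPM in the replicate 1 libraries and to 1297 to 4115 CPM in the others. Counts of called members are therefore also given without them, as are those of related genes with IFNγ and in the Myc network.

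Start site windows of members were examined for the canonical E-box, the 6 letters CACGTG that Myc with Max is known to prefer. The windows, from RefSeq on GRCm38.p6, reach from 250 bases before to 50 bases after a transcription start, and 37 of the 43 members have one. At least 1 CACGTG was present for 9 of these 37 (24.3%), against 11.5% of 9635 tested genes and 8.09% of all 27025 genes with a window. The motif reads the same on both strands. The 9 genes were Nop2, Grwd1, Utp20, Pes1, Mybbp1a, Tsr1, Nle1, Wdr43 and Rrn3. The GC box (GGGCGG, or CCGCCC on the other strand) was present for 28 of the 37 members (75.7%), 67.3% of tested genes and 38.2% of all genes. A match describes these letters only and was not tied to binding. Windows are printed for the 2 members with the smallest log2 fold changes with αCD3 and for 2 with larger ones, Rrn3 (chr16:13780449-13780748, plus strand), Pes1 (chr11:3963725-3964024, plus strand), Utp20 (chr10:88826765-88827064, minus strand) and Nop2 (chr6:125131633-125131932, plus strand), 5′ to 3′ along the gene's strand with each CACGTG in capitals.
Rrn3: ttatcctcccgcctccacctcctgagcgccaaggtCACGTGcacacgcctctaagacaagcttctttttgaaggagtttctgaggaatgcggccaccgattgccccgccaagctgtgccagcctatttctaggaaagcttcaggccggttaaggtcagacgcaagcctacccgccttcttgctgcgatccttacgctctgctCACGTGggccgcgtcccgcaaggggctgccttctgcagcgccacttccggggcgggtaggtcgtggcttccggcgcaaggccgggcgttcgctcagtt
Pes1: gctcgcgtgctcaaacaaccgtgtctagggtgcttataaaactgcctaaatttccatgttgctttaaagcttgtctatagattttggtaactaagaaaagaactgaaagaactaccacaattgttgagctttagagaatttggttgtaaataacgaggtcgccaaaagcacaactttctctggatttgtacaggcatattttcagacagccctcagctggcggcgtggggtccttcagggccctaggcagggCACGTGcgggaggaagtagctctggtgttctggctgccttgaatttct
Utp20: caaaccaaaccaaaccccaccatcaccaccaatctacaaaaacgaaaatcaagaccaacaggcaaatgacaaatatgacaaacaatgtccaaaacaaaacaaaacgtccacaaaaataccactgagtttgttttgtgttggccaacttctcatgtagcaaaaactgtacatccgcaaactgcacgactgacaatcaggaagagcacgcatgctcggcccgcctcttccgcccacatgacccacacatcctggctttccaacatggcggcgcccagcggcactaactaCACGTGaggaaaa
Nop2: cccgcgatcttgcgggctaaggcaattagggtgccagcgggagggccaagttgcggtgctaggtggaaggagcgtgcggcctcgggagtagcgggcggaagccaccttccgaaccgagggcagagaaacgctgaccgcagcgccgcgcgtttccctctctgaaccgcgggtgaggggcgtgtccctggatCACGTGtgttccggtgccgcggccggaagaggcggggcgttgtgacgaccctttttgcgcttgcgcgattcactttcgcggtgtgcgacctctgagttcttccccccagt
Rrn3 holds the motif at 2 places, which begin at positions -215 and -48 from the start, and the motif begins at 3 in Pes1, at 38 in Utp20 and at -60 in Nop2. The letters were thus present in windows of the least responsive members as well as of members with larger changes with αCD3: the log2 fold change with αCD3 ran from 0.60 to 1.40 (median 1.26) over the 9 genes with the motif and from 0.86 to 1.48 (median 1.14) over 27 genes without it, Nolc1 left out.

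To see how the program responded to each treatment, the members were compared with Naïve in a single edgeR fit over all 12 libraries. This fit does not pair same-numbered libraries, and fits that do are given as an alternative. Genes below 0.05 after Benjamini-Hochberg adjustment over all 12122 are termed called here. With αCD3, 42 of 43 members were called higher and 0 lower, against a background of 22.9% of all tested genes called higher and 15.7% lower. With LPS, 42 of 43 were called higher and 0 lower, against 26.9% and 22.3% of all tested genes. For both treatments an unadjusted p under 0.05 also gave 42 higher and 0 lower, as did DESeq2 and limma-voom with their own adjusted p. The members' median log2 fold change was 1.17 with αCD3 and 1.38 with LPS, and the median of all tested genes was -0.02 and -0.01. The 3 treated libraries all lay above the 3 Naïve libraries for 42 members in both comparisons, where 28.6% (αCD3) and 30.6% (LPS) of all tested genes did so. Among called members the rise reached 2-fold or more for 32 with αCD3 and for 37 with LPS. Of all 12122 tested genes, 556 and 889 were called higher with such a rise. Both treatments were compared with the same 3 Naïve libraries, so their values are given side by side and are not independent of each other.

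**Figure D1:**
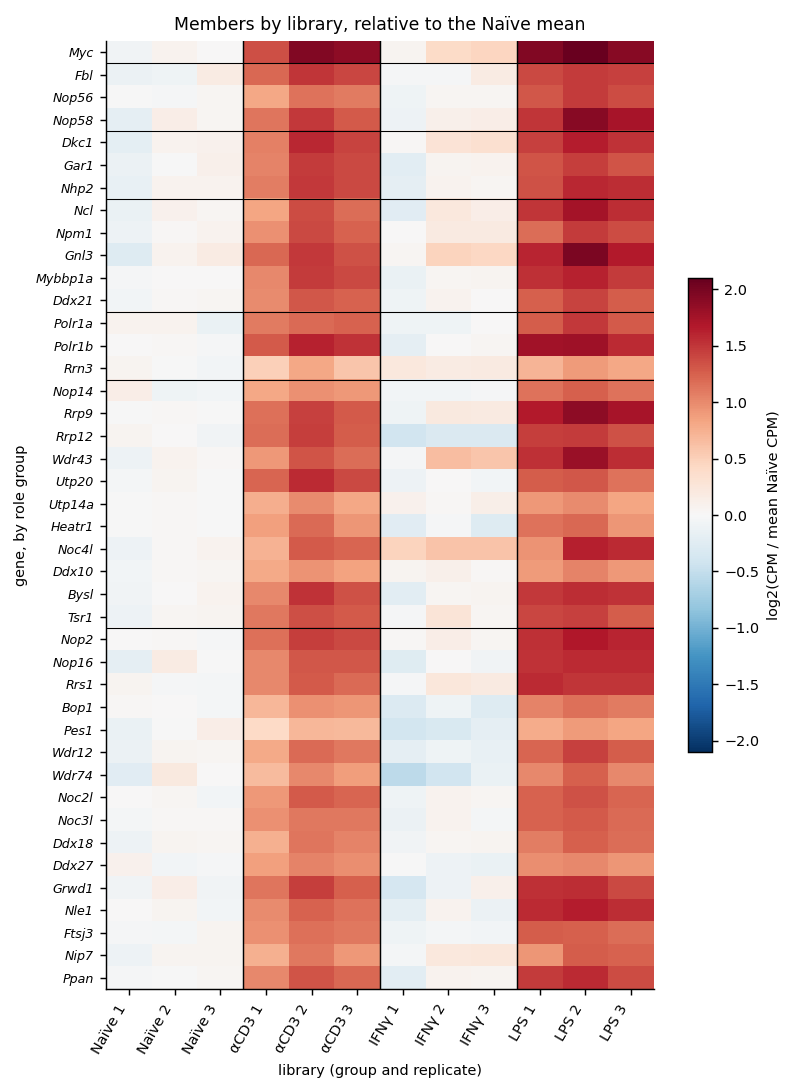
Level of 42 members (rows, ordered by role from Myc to the large subunit factors, with lines between roles) in each of the 12 libraries (columns) as log2 of CPM over the Naïve mean, with Nolc1 left out because several libraries held 0 counts. All rows are red in the αCD3 and LPS libraries, with αCD3 replicate 1 the palest of its group, and near white in most IFNγ libraries.

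Summed over the 43 members, the level was 4835 to 5197 CPM in the Naïve libraries, 9793 to 12679 in αCD3, 4806 to 5470 in IFNγ and 12477 to 14119 in LPS. Without Npm1, which alone made up the largest piece, the sums were 3835 to 4061, 7706 to 9866, 3719 to 4247 and 10065 to 11152 CPM. The αCD3 and LPS sums lay above all Naïve and IFNγ sums, while the Naïve and IFNγ ranges overlapped. Among the 3 αCD3 libraries, replicate 1 was the lowest for 42 of the 43 members and replicate 2 the highest for 41. Within each replicate number, 42 of 42 members with counts in both libraries were higher with αCD3 than in Naïve, with median log2 ratios of 1.01, 1.26 and 1.19. Leaving out the 4 replicate 1 libraries kept the counts at 42 higher and 0 lower for αCD3, against 26.7% and 22.1% of all tested genes, and for LPS, against 29.2% and 25.9%.

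Myc is the transcription factor among the members (ENSMUSG00000022346, chr15:61985391-61990374 on the plus strand, GRCm38). It stood at 144, 159 and 152 CPM in the Naïve libraries, at 384, 584 and 557 with αCD3, at 157, 199 and 206 with IFNγ, and at 579, 640 and 571 with LPS. The αCD3 and LPS libraries did not overlap the Naïve ones, and the lowest of them, αCD3 replicate 1, was still above each IFNγ library. Myc rose 3.36-fold with αCD3 (log2 fold change 1.75 ± 0.15 SE, adjusted p = 1.9e-05) and 3.94-fold with LPS (1.98 ± 0.15, adjusted p = 5.12e-06), in both cases the largest change of any called member. Without the replicate 1 libraries the values were 1.89 and 1.97. With IFNγ the Naïve and IFNγ ranges of Myc overlapped, and the log2 fold change of 0.31 ± 0.15 was not called (adjusted p = 0.234, edgeR). It was called once the replicate 1 libraries were left out (0.37, adjusted p = 0.00409), and not with the replicate number as a block (adjusted p = 0.0623).

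**Figure D2:**
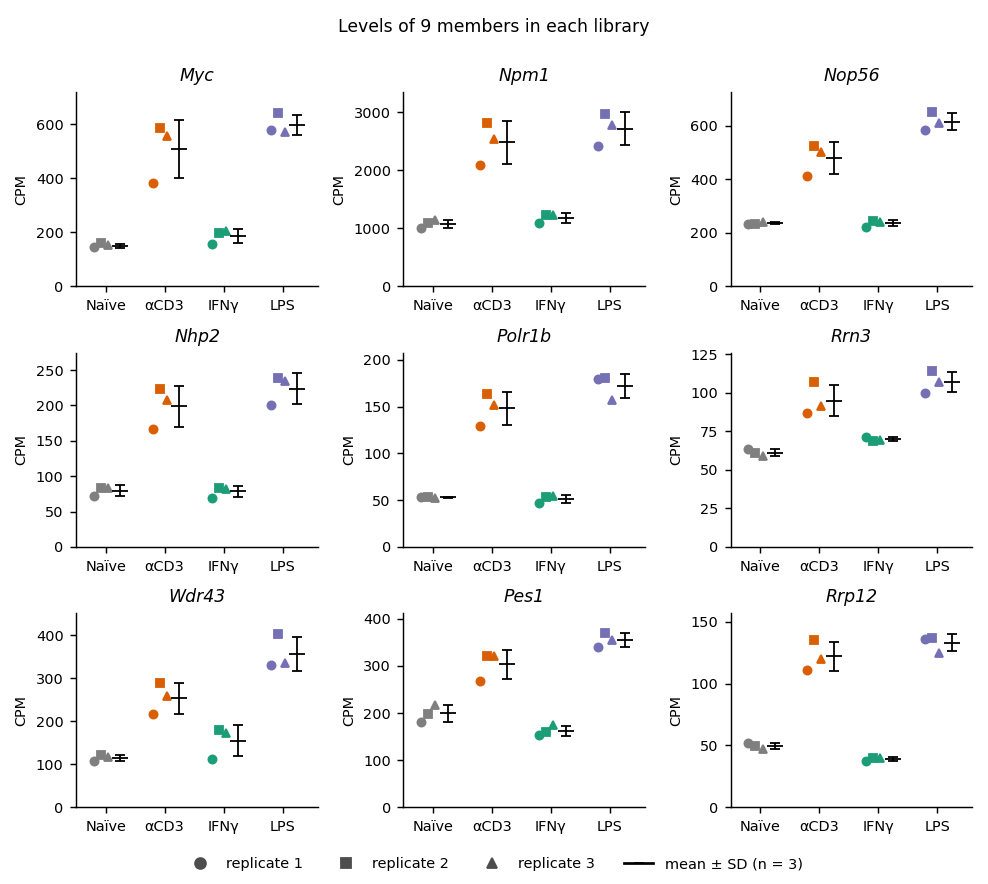
CPM (linear axis from 0) of Myc and 8 other members in each library, with a marker shape per replicate and the mean ± SD of the 3 libraries of each group beside them. For Myc the αCD3 and LPS libraries lie between 384 and 640 CPM and the Naïve and IFNγ libraries between 144 and 206, and for Rrp12 the 3 IFNγ libraries lie below the 3 Naïve libraries.

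The RNA polymerase I members were Polr1a, its largest subunit, Polr1b, its second-largest, and Rrn3, the factor that readies the enzyme for the ribosomal RNA promoter. All 3 were called higher with αCD3 and with LPS and none with IFNγ. Polr1b stood at 53.3, 53.7 and 52.1 CPM in Naïve, 129, 163 and 152 with αCD3, 46.6, 53.6 and 54.5 with IFNγ, and 179, 181 and 157 with LPS. It rose 2.79-fold with αCD3 (log2 1.48 ± 0.10) and 3.25-fold with LPS (1.70 ± 0.10), next to Myc in the αCD3 order of called members. Polr1a stood at 40.9, 40.9 and 35.3 CPM in Naïve, 82.9, 88.5 and 91.9 with αCD3, 36.7, 36.8 and 39.0 with IFNγ, and 94.5, 109 and 94.8 with LPS. It rose by less, 2.25-fold with αCD3 and 2.55-fold with LPS. Rrn3, with 63.8, 60.7 and 59.0 CPM in Naïve, 87.0, 107 and 91.6 with αCD3, 71.2, 68.6 and 69.6 with IFNγ, and 100, 114 and 107 with LPS, was among the least responsive members. Its 1.55-fold (log2 0.63 ± 0.08, adjusted p = 0.000166) and 1.75-fold (0.81 ± 0.08, adjusted p = 2.08e-05) changes were still larger than the spread between libraries. In the Naïve libraries Rrn3 was nonetheless the most abundant of the 3 per kb of coding sequence, at 31.1 CPM per kb against 15.6 for Polr1b and 7.58 for Polr1a.

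The snoRNP proteins sit on guide RNAs that direct ribose methylation (box C/D) or pseudouridylation (box H/ACA) of ribosomal RNA. All 3 box C/D members and all 3 box H/ACA members were called higher with αCD3 and with LPS. Nop56, a box C/D scaffold with the highest Naïve level per kb of the 3, stood at 234, 233 and 242 CPM in Naïve, 413, 523 and 503 with αCD3, 221, 243 and 242 with IFNγ, and 585, 650 and 611 with LPS. The αCD3 libraries lay between the Naïve and the LPS libraries without overlapping either. Its log2 fold change was 1.02 ± 0.09 with αCD3 and 1.38 ± 0.09 with LPS. The methyltransferase Fbl (fibrillarin) rose by 1.38 ± 0.10 and 1.44 ± 0.10 on the log2 scale, and the scaffold Nop58 by 1.30 ± 0.13 and 1.73 ± 0.13. Nhp2, a box H/ACA core protein, stood at 71.3, 83.8 and 83.8 CPM in Naïve, 167, 223 and 208 with αCD3, 69.7, 83.8 and 81.9 with IFNγ, and 200, 239 and 234 with LPS. Its IFNγ and Naïve values were nearly the same library by library, and the other 2 groups were clear of both. Its log2 fold change was 1.32 ± 0.12 with αCD3 and 1.49 ± 0.12 with LPS, close to those of the pseudouridine synthase Dkc1 (1.37 ± 0.14 and 1.54 ± 0.14) and of Gar1 (1.32 ± 0.12 and 1.37 ± 0.12).

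Among 6 abundant nucleolar proteins, 5 were called higher with both treatments. Npm1 (nucleophosmin, a histone and ribosome chaperone) had by far the highest level of all members per kb, 1227 CPM per kb in Naïve and 3103 with LPS. It stood at 1000, 1090 and 1136 CPM in Naïve, 2087, 2813 and 2547 with αCD3, 1087, 1223 and 1232 with IFNγ, and 2412, 2967 and 2776 with LPS. The αCD3 and LPS libraries overlapped each other and lay clear above the Naïve and IFNγ ones, with rises of 2.31-fold (log2 1.21 ± 0.11) and 2.53-fold (1.34 ± 0.11). Only 70.8% of the 31-base words of Npm1 transcripts were unique to the gene in GENCODE M21, as for Pes1 (67.6%), Nop56 (77.6%), Fbl (79.3%) and, lowest, Ddx18 (34.5%), so their estimated counts depend on how shared reads were divided. Gnl3 (nucleostemin, a GTPase of proliferating cells) stood at 33.1, 41.9 and 44.9 CPM in Naïve, 92.3, 112 and 101 with αCD3, 41.1, 55.2 and 54.3 with IFNγ, and 121, 157 and 127 with LPS. The LPS libraries were all above the αCD3 libraries, and the log2 rises were 1.75 ± 0.15 and 1.35 ± 0.15. Ncl (nucleolin) rose by 1.14 ± 0.15 with αCD3 and 1.61 ± 0.15 with LPS, Mybbp1a by 1.30 ± 0.11 and 1.54 ± 0.11, and the RNA helicase Ddx21 by 1.19 ± 0.09 and 1.31 ± 0.09. Nolc1, a chaperone of snoRNPs, was listed with 0, 0 and 31 counts in Naïve, 61, 35 and 0 with αCD3, 0, 18 and 0 with IFNγ, and 40, 16 and 55 with LPS. It was thus listed at 0 in 5 of the 12 libraries, although it is expressed in most cells, and a 0 in estimated counts can be a failed estimate, which was not tested. No fold change is therefore read from it. It was the only member not called in any of the 6 comparisons.

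**Figure D3:**
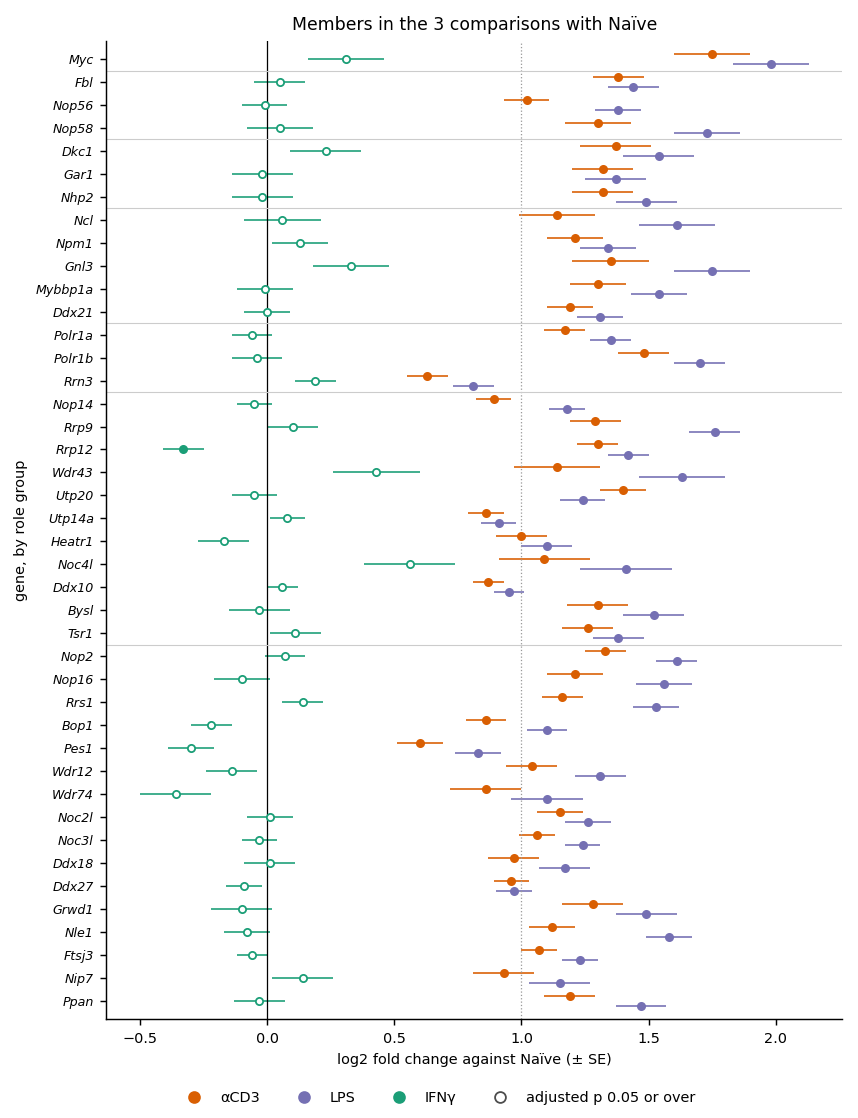
Log2 fold change against Naïve with its SE for 42 members (rows, by role), for αCD3 (orange), LPS (violet) and IFNγ (green), filled where the adjusted p was under 0.05, with a dotted line at 1 (a 2-fold change) and Nolc1 left out. The αCD3 and LPS points run from 0.60 to 1.98, and the IFNγ points lie between -0.36 and 0.56 with Rrp12 the only filled one.

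The small subunit factors make up the processome that binds the nascent precursor RNA, together with later factors of the small subunit. All 11 were called higher with αCD3 (log2 0.86 to 1.40, median 1.14) and all 11 with LPS (0.91 to 1.76, median 1.38). Wdr43, a processome subunit with the highest level per kb in this class, stood at 107, 121 and 117 CPM in Naïve, 216, 288 and 259 with αCD3, 113, 180 and 172 with IFNγ, and 332, 403 and 335 with LPS. It was higher in each LPS library than in any αCD3 library, with log2 rises of 1.63 ± 0.17 and 1.14 ± 0.17. Rrp9, a protein of the U3 snoRNP that guides the first cleavages, stood at 54.8, 55.8 and 54.5 CPM in Naïve, 122, 148 and 135 with αCD3, 51.5, 63.4 and 62.5 with IFNγ, and 175, 203 and 182 with LPS. Its 3.39-fold rise with LPS (1.76 ± 0.10, adjusted p = 1.11e-06) followed that of Myc, and its rise with αCD3 was 2.45-fold (1.29 ± 0.10, adjusted p = 8.52e-06). Utp20, a large scaffold of the processome whose start site window is printed above, stood at 79.8, 85.1 and 81.4 CPM in Naïve, 191, 243 and 215 with αCD3, 75.9, 82.8 and 78.9 with IFNγ, and 198, 203 and 180 with LPS. Its αCD3 and LPS ranges overlapped, at log2 changes of 1.40 ± 0.09 and 1.24 ± 0.09. Utp14a, a partner of an RNA helicase of the processome, stood at 73.4, 75.2 and 74.0 CPM in Naïve, 126, 147 and 131 with αCD3, 79.1, 75.6 and 80.6 with IFNγ, and 140, 148 and 132 with LPS, and rose the least of this class under LPS (0.91 ± 0.07). The other 7 (Nop14, Rrp12, Heatr1, Noc4l, Ddx10, Bysl and Tsr1) rose by 0.87 to 1.30 with αCD3 and by 0.95 to 1.52 with LPS on the log2 scale.

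The large subunit factors were the largest class, with 16 members. All 16 were called higher with αCD3 (log2 0.60 to 1.33, median 1.06) and with LPS (0.83 to 1.61, median 1.25). Nop2, a ribosomal RNA methyltransferase, led the class in both comparisons with 1.33 ± 0.08 and 1.61 ± 0.08. Pes1, Bop1 and Wdr12 form the PeBoW complex of large subunit maturation, and their values lay below the members' median with both treatments. Pes1 stood at 181, 198 and 218 CPM in Naïve, 267, 321 and 320 with αCD3, 153, 159 and 174 with IFNγ, and 340, 370 and 354 with LPS. Its 1.52-fold (log2 0.60 ± 0.09, adjusted p = 0.000543) rise with αCD3 was the smallest of the called members, and with LPS it rose 1.78-fold (0.83 ± 0.09, adjusted p = 4.24e-05). Bop1 stood at 85.0, 84.5 and 81.9 CPM in Naïve, 136, 163 and 160 with αCD3, 68.3, 78.7 and 69.5 with IFNγ, and 173, 187 and 179 with LPS. For both genes the 4 groups kept the same order without overlap, with IFNγ lowest, then Naïve, αCD3 and LPS. Bop1 rose by 0.86 ± 0.08 and 1.10 ± 0.08 on the log2 scale, and Wdr12 by 1.04 ± 0.10 and 1.31 ± 0.10. The other 12 (Nop16, Rrs1, Wdr74, Noc2l, Noc3l, Ddx18, Ddx27, Grwd1, Nle1, Ftsj3, Nip7 and Ppan) rose by 0.86 to 1.28 with αCD3 and by 0.97 to 1.58 with LPS.

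IFNγ left most of the set near its Naïve level. Of 43 members, 0 were called higher, against a background of 8.17% of all tested genes, and 1 was called lower, against 4.27%. At an unadjusted p under 0.05, 3 members were higher (Noc4l, Wdr43 and Rrn3) and 4 lower (Rrp12, Pes1, Bop1 and Wdr74). No share of all tested genes is given for the unadjusted p, so these counts are not set against a background. DESeq2 called 1 higher and 2 lower, and limma-voom 0 higher and 1 lower. Of all 12122 tested genes, DESeq2 called 1158 higher and 679 lower, and limma-voom 950 and 485. Scaled by library size alone, which moved the median of all tested genes to -0.16, edgeR called 0 higher and 7 lower, against 5.90% and 12.9% of all tested genes. The median log2 fold change was -0.01, against -0.02 for all tested genes, and the members ran from -0.36 to 0.56. Rrp12, which is needed for export and maturation of the small subunit, stood at 51.7, 49.7 and 47.1 CPM in Naïve and at 37.4, 40.2 and 40.2 with IFNγ, against 111, 135 and 120 with αCD3 and 136, 137 and 125 with LPS. The 3 IFNγ libraries were the lowest 3 of all 12, and Rrp12 fell by 0.33 ± 0.08 on the log2 scale (adjusted p = 0.0209). The call was lost when any one of 5 libraries (Naïve replicate 1 or 2, or any IFNγ replicate) was left out, with adjusted p from 0.0122 to 0.0693 over the 12 fits that left out 1 library. Noc4l, a nucleolar small subunit factor, had the largest positive value, with 49.4, 54.1 and 56.3 CPM in Naïve, 74.1, 80.6 and 80.8 with IFNγ, 88.1, 130 and 124 with αCD3, and 102, 166 and 158 with LPS. The IFNγ libraries lay between the Naïve and the αCD3 libraries without overlap. The 1.47-fold difference (log2 0.56 ± 0.18) was not called in the unpaired edgeR fit (adjusted p = 0.0748).

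Further members at the ends of the IFNγ order did not pass in the unpaired fit either. Wdr43 differed by 0.43 ± 0.17 on the log2 scale (adjusted p = 0.134), and its IFNγ replicate 1 (113 CPM) lay within the Naïve range while replicates 2 and 3 lay above it. Gnl3 differed by 0.33 ± 0.15 (adjusted p = 0.207). On the other side, Wdr74, a large subunit factor, stood at 26.4, 35.8 and 31.3 CPM in Naïve, 21.2, 23.5 and 28.2 with IFNγ, 49.4, 62.6 and 57.3 with αCD3, and 62.7, 74.3 and 62.7 with LPS, a difference of -0.36 ± 0.14 (adjusted p = 0.147). Pes1 differed by -0.30 ± 0.09 (adjusted p = 0.0600), with no overlap between its IFNγ and Naïve libraries. The 3 IFNγ libraries all lay above the 3 Naïve libraries for 4 members (Rrn3, Utp14a, Noc4l and Nop2), where 16.1% of all tested genes did so, and all below for 4 (Rrp12, Heatr1, Bop1 and Pes1), where 15.4% did so. Same-numbered libraries deviated together in all groups, and with the replicate number as a block 4 members were called higher (Noc4l, Wdr43, Gnl3 and Dkc1) and 4 lower (Rrp12, Pes1, Bop1 and Wdr74), against 13.5% and 11.4% of all tested genes. Without the replicate 1 libraries 4 were called higher (Myc, Noc4l, Wdr43 and Rrs1) and 2 lower (Rrp12 and Pes1), against 11.8% and 11.5% of all tested genes in that fit.

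The IFNγ group was also compared directly with the other treatments. Against αCD3, 42 of 43 members were called lower and 0 higher (background 21.4% lower and 15.8% higher), with a median of -1.17, and against LPS again 42 were called lower and 0 higher (background 22.4% and 18.0%), with a median of -1.39. An unadjusted p under 0.05 gave the same counts, DESeq2 gave 42 lower in both, and limma-voom gave 41 and 42, with 0 higher throughout. Myc differed by -1.44 ± 0.15 from αCD3 (adjusted p = 4.38e-05) and by -1.67 ± 0.15 from LPS (adjusted p = 1.2e-05). The largest called differences were those of Rrp12, -1.64 ± 0.08 and -1.76 ± 0.08, and the smallest were those of Rrn3, -0.44 ± 0.08 and -0.62 ± 0.08.

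αCD3 and LPS were then set against each other. Of 43 members, 0 were called higher with αCD3, against 9.64% of all tested genes, and 9 were called lower, against 9.76%, with a median log2 difference of -0.22 over the members and -0.01 over all tested genes. At an unadjusted p under 0.05 the counts were 0 and 20, by DESeq2 0 and 10, and by limma-voom 0 and 9. Of all 12122 tested genes, DESeq2 called 1305 higher and 1357 lower, and limma-voom 1167 and 1231. No share of all tested genes is given for the unadjusted p, so that count is not set against a background. The 9 were Rrp9, Nle1, Rrs1, Nop56, Nop14, Nop2, Nop16, Nop58 and Ncl, of the box C/D, abundant nucleolar, small subunit and large subunit classes. Nle1, a large subunit factor, stood at 71.1, 85.0 and 78.9 CPM with αCD3 and at 106, 113 and 105 with LPS, over 36.0, 37.2 and 34.5 in Naïve and 31.3, 37.9 and 32.9 with IFNγ. Its libraries did not overlap, at -0.46 ± 0.08 (adjusted p = 0.00374). Rrs1, which helps to bring a small ribosomal RNA into the large subunit, stood at 116, 141 and 132 CPM with αCD3 and at 171, 164 and 164 with LPS, over 60.4, 56.9 and 56.2 in Naïve and 57.0, 67.8 and 65.8 with IFNγ. It differed by -0.36 ± 0.08 (adjusted p = 0.0118), and Rrp9 by -0.47 ± 0.09 (adjusted p = 0.00617). These 3 genes were called in each of 21 alternative fits.

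The other 6 of the 9 were called in fewer of the 21 fits, from 19 for Nop56 down to 7 for Ncl. The count fell to 4 without αCD3 replicate 1, to 3 without LPS replicate 2 and to 5 without Naïve replicate 3, αCD3 replicate 3 or LPS replicate 3. Lower calls over all tested genes fell in these fits too, from 1183 to 918, 710, 1028, 741 and 741 in the same order. With the replicate number as a block it rose to 23, with 0 higher, against 18.2% and 16.5% of all tested genes, and without the 4 replicate 1 libraries it was 13, with 1 (Utp20) called higher with αCD3, against 15.1% and 14.3%. The members' median came to -0.13 without αCD3 replicate 1, and also without all 4 replicate 1 libraries or with library size alone. Members lay lower in αCD3 than in the same-numbered LPS library for 43 of 43 genes in replicate 1, 38 of 43 in replicate 2 and 36 of 42 in replicate 3, with median log2 ratios of -0.34, -0.14 and -0.13, and 47.9 to 49.4% of all tested genes were higher. Replicate 1 thus carried the widest gap. The 3 αCD3 libraries all lay below the 3 LPS libraries for 19 members, where 18.2% of all tested genes did so. Myc differed by -0.23 ± 0.15 (adjusted p = 0.308, edgeR), and Npm1 by -0.13 ± 0.11 (adjusted p = 0.451), so neither was shown to differ between these treatments. T cell markers moved apart in the same comparison, with 7 of 8 called higher and 1 lower with αCD3, and of 12 B cell markers 2 were called higher and 3 lower. Their part in the members' difference was not tested.

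**Figure D4:**
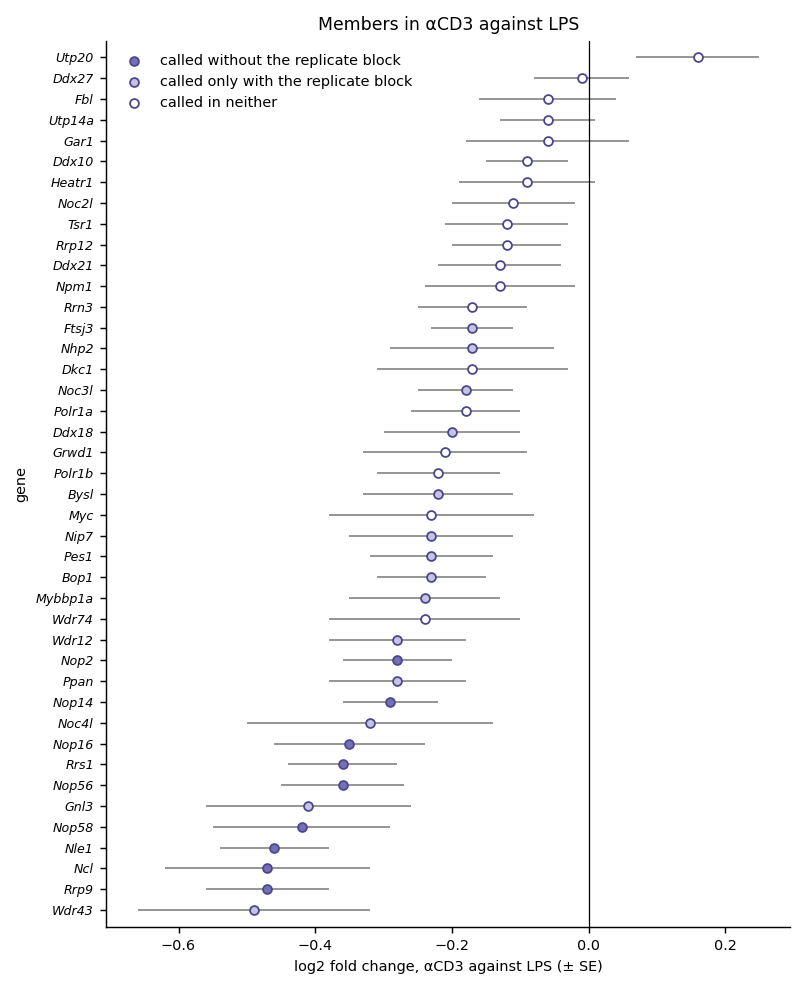
Log2 fold change of αCD3 against LPS with its SE for 42 members, ordered by value, filled dark where called without the replicate block, pale where called only with it and open where called in neither. All points but that of Utp20 lie below 0, the lowest is Wdr43 at -0.49, and 9 are dark.

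Related genes were taken from 6 lists that do not overlap the members. With αCD3, 33 of 38 further small subunit factors were called higher and 0 lower, and with LPS 35 and 0, where over all tested genes 22.9% were higher and 15.7% lower with αCD3 and 26.9% and 22.3% with LPS. The largest called changes were those of the acetyltransferase Nat10 with αCD3 (70.4 ± 1.88 to 177 ± 10.9 CPM, mean ± SD, n = 3, log2 1.33 ± 0.08) and of Aatf with LPS (36.7 ± 2.11 to 108 ± 8.63 CPM, 1.56 ± 0.10). Of 36 further large subunit factors, 34 were called higher and 1 lower with αCD3, and 35 higher and 0 lower with LPS. They were led by Rrp15 with αCD3 (1.58 ± 0.13) and Rrp1b with LPS (2.04 ± 0.14), and the 1 that fell was Nop53 (36.8 ± 4.86 to 28.8 ± 3.50 CPM, -0.35 ± 0.11, adjusted p = 0.0236). Of 11 snoRNP assembly factors, 10 were called higher and 0 lower with each treatment, led by Znhit6 with αCD3 (1.55 ± 0.13) and by Naf1 with LPS (1.58 ± 0.10). Further RNA polymerase I machinery moved in part, with 8 of 12 called higher with αCD3, 7 of 12 with LPS and 0 lower, the largest for the subunit gene Cd3eap (1.21 ± 0.11 and 1.47 ± 0.11). DESeq2 and limma-voom also called 0 lower wherever edgeR did in these 4 lists, as did an unadjusted p under 0.05. Of 25 other textbook Myc targets, all 25 were called higher with both treatments, led by cyclin D2 (Ccnd2) at 1.84 ± 0.33 and 2.95 ± 0.34.

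With IFNγ the calls in the same lists were 1 lower of 38 small subunit factors (Rcl1, 49.4 ± 1.62 to 39.9 ± 0.793 CPM, -0.31 ± 0.05), 1 higher of 36 large subunit factors (Ddx24, 0.69 ± 0.13), 1 lower of 12 polymerase I genes (Ubtf, which binds ribosomal DNA, -0.35 ± 0.07), 0 of 11 snoRNP assembly factors and 1 higher of 25 Myc targets (Ccnd2, 1.44 ± 0.33). For the snoRNP list edgeR, DESeq2 and limma-voom each called 0 of 11 with IFNγ, and 1 of 11 was higher at an unadjusted p under 0.05. These IFNγ counts moved with the replicate 1 libraries and the pairing. With the replicate number as a block, 5 of 25 Myc targets were called higher and 0 lower, 3 and 1 of 36 large subunit factors, 2 and 3 of 38 small subunit factors, 0 and 2 of 12 polymerase I genes and 1 and 0 of 11 snoRNP assembly factors, beside 13.5% and 11.4% of all tested genes. Without the replicate 1 libraries the counts in the same order were 6 and 0, 2 and 0, 1 and 3, 0 and 2, and 1 and 0, beside 11.8% and 11.5%. With αCD3 and LPS no count of calls in these 5 lists moved by more than 1 under either setting. Max, the partner of Myc on DNA, stood at 127, 131 and 138 CPM in Naïve, 182, 282 and 235 with αCD3, 218, 302 and 306 with IFNγ, and 195, 271 and 258 with LPS. It rose with all 3 treatments, IFNγ included (1.06 ± 0.18, adjusted p = 0.00388), beside 0.82 ± 0.18 with αCD3 and 0.87 ± 0.18 with LPS. Of the 12 tested network genes, 1 was called higher and 3 lower with αCD3, 3 higher and 1 lower with LPS and 1 higher and 0 lower with IFNγ, where 22.9% and 15.7%, 26.9% and 22.3%, and 8.17% and 4.27% of all tested genes were called. With the replicate block the network counts were 3 and 3, 6 and 3, and 3 and 2, and without the replicate 1 libraries 3 and 2, 4 and 2, and 3 and 2. Of all 12122 tested genes, the block called 3411 and 2938, 3762 and 3445, and 1642 and 1378 in the same order. Without the replicate 1 libraries 26.7% and 22.1%, 29.2% and 25.9%, and 11.8% and 11.5% of all tested genes were called. Mxd4, which pairs with Max in place of Myc, fell by 1.21 ± 0.34 with αCD3 and by 1.90 ± 0.35 with LPS, while its relative Mxd1 rose by 1.10 ± 0.35 with LPS (adjusted p = 0.0247) and differed by 1.18 ± 0.35 with IFNγ without being called (adjusted p = 0.0542).

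**Figure D5:**
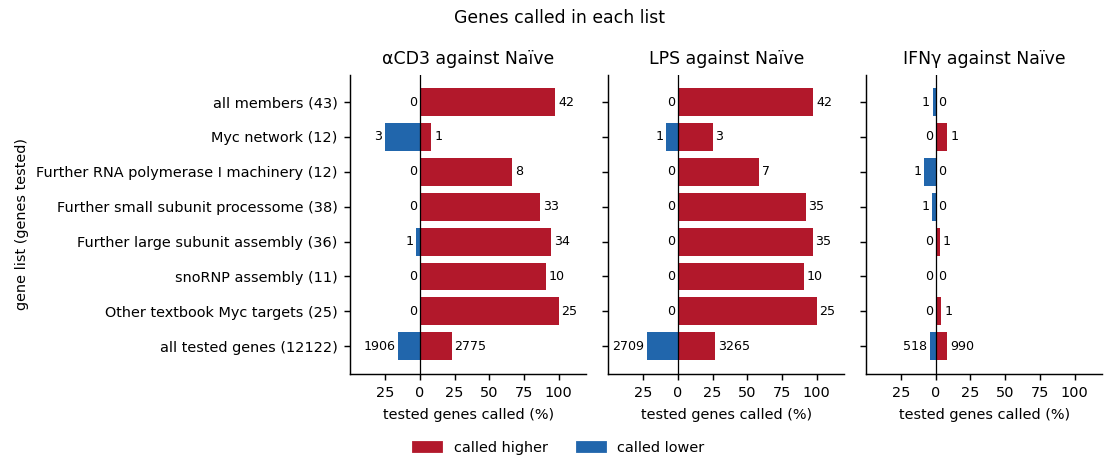
Share of tested genes called higher (red, to the right) and lower (blue, to the left) in each comparison with Naïve for the 43 members, the 6 related lists and all 12122 tested genes, with the number called at each bar. Bars of the assembly lists reach far past the bar of all tested genes with αCD3 and LPS, and those of the IFNγ panel stay short.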

How the data were processed

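RNA of cultured splenic cells was sequenced as 12 mRNA libraries, 3 in each of 4 groups. The authors deposited 1 table of estimated counts per gene symbol, made by pseudo-alignment with kallisto (version not given in the sources used here, genome mm10 per the labels). Kallisto divides shared reads between transcripts by estimate, and the use of strand is not stated, so values of members with near copies or opposite-strand neighbours are less certain. Fractional values occurred in 8784 to 10011 genes per library, and counts were rounded to whole numbers. Per the labels the authors also used DESeq2 1.24.0.

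Groups came from the sample labels. Genes were filtered with filterByExpr, scaled by TMM and tested with the quasi-likelihood test of edgeR 4.0.16 (limma 3.58.1, R 4.3.3) in 1 fit over the 12 libraries with no covariate, with Benjamini-Hochberg adjustment over all 12122 genes, for 6 comparisons of 2 groups. CPM values are TMM-scaled, and levels per kb use the longest coding sequence in GENCODE M21, to which 20620 of 20778 symbols were matched. Depth was 10.2 to 27.6 M counts per library. Deviations from the group means correlated at 0.117 to 0.401 in all 18 same-numbered pairs of libraries and at -0.354 to 0.102 in 36 other pairs. The replicate numbers in the labels were therefore taken to pair the libraries. The main fit leaves this pairing out, so its SEs and calls are those of an unpaired design. With the replicate number as a block, members called with IFNγ against Naïve went from 0 higher and 1 lower to 4 and 4. Those called lower with αCD3 against LPS went from 9 to 23. Alternatives were DESeq2 size factors, library size alone, no filter, DESeq2 1.42.0, limma-voom, unrounded counts, only the 2 groups compared, the replicate block and leaving out each library, and, added after the data were seen, all 4 replicate 1 libraries left out. The tests were tried on simulated counts. The members and lists were chosen with earlier results of these data known. Library values were given for Myc, the RNA polymerase I members, the highest member per kb of each role and the 3 highest and 3 lowest log2 fold changes in each comparison with Naïve. From each related list the largest called change in each direction was named, plus Max. Library values of Bop1, Utp20, Nle1 and Rrs1 were added after they were seen.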

Additional observations from a re-analysis of the deposited data

How the results depend on the processing

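Against Naïve, 42 members were called higher with αCD3 under each of the 21 alternatives, and with LPS 42 or, without Naïve replicate 3, 43. For IFNγ against αCD3 the lower count was 41 or 42, and against LPS 42. For IFNγ against Naïve, the 0 members called higher became 1 with DESeq2, 4 with the replicate block, 1 with only the 2 groups, 0 to 1 when 1 library was left out and 4 without the replicate 1 libraries. Over all tested genes, the 990 called higher became 1158, 1642, 901, 572 to 1068 and 1436 in the same order. The 1 member called lower became 7 with library size alone, 2 with DESeq2, 4 with the block, 0 to 2 with 1 library left out and 2 without the replicate 1 libraries. Over all tested genes, the 518 called lower became 1564, 679, 1378, 215 to 583 and 1401 in the same order. For αCD3 against LPS, the 0 members called higher became 1 with library size alone and 1 without the replicate 1 libraries. Over all tested genes, the 1168 called higher became 1691 and 1743. The 9 members called lower became 6 with DESeq2 size factors, 4 with library size alone, 5 without the filter, 23 with the block, 3 with only the 2 groups and 3 to 11 with 1 library left out, and 13 without the replicate 1 libraries. Over all tested genes, the 1183 called lower became 1148, 766, 918, 2201, 675, 710 to 1294 and 1839 in the same order. The genes tested were 17117 without the filter and 11660 with only the 2 groups. The cause was not tested. Some log2 differences of IFNγ from Naïve that were not called changed sign. With 1 library left out, Nop56 ran from -0.03 to 0.03 (0.01 without the replicate 1 libraries), Nhp2 from -0.10 to 0.05, and Polr1b from -0.08 to 0.02 (0.01 without the replicate 1 libraries). Nolc1, listed at 0 in 5 libraries so that no fold change is read from it, came to 0.30 with limma-voom and ran from -6.21 to 5.92 with 1 library left out. With library size alone Npm1 came to -0.01, Utp14a to -0.06 and Nop2 to -0.07. That scaling moved the median of all tested genes to -0.13 (αCD3), -0.22 (LPS) and -0.16 (IFNγ), and the members' medians to 1.06, 1.17 and -0.15. It changed the split of all called genes from 2775 higher and 1906 lower to 2095 and 2667 with αCD3, from 3265 and 2709 to 2140 and 4380 with LPS, and from 990 and 518 to 715 and 1564 with IFNγ.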
